A study of Mus musculus with 8 samples.

Results

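Solute carriers are membrane proteins that move amino acids, ions, nucleosides, metals, sugars, vitamins and drugs across cell membranes. They were examined here in the mouse heart after lipopolysaccharide (LPS), a component of the outer membrane of Gram-negative bacteria that sets off systemic inflammation. The members were all genes on the array whose symbol begins with Slc and a family number. The glucose family Slc2, the monocarboxylate family Slc16, the mitochondrial family Slc25 and 9 single genes (Slc7a1, Slc7a2, Slc8a1, Slc9a3r1, Slc9a3r2, Slc22a5, Slc27a1, Slc39a14 and Slc40a1) were left out. This gave 249 genes with 368 probes, out of 318 Slc genes with 466 probes. The rule itself used no measured value, but it was set with earlier results of these data known. RNA came from pieces of perfused hearts of 8 female C57BL/6 mice aged 12 weeks, 4 of them given 5 mg/kg LPS into the peritoneum and 4 given saline, all killed after 8 h. C57BL/6 is an inbred laboratory strain, and no gene was altered in either group. Each heart was hybridised to its own 1-colour oligonucleotide array.

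Most plasma membrane carriers draw on the sodium gradient kept up by the sodium pump, exchange one solute for another, or let a solute run down its own gradient. Some work in pairs: the CD98 heavy chain, Slc3a2, takes light chains such as Slc7a5 to the cell surface, where they exchange large neutral amino acids. In heart muscle, carriers of the family supply taurine and creatine, take up adenosine, and set cell chloride, pH and volume. The rule went by symbol and not by membrane, so it also took in carriers of internal membranes. Among these were 15 tested members of family Slc35, most of whose known members are nucleotide sugar carriers of the Golgi and endoplasmic reticulum. Others were the lysosomal Slc38a9, Slc29a3 and Slc15a3, the phagosomal Slc11a1 and the mitochondrial Slc8b1. It took in Slc4a1ap as well, which is an adaptor protein and not a carrier. Plasma membrane carriers are therefore only part of the set.

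The promoter windows of 4 members are shown. Slc10a6 had the largest fitted rise and Slc29a2 the largest fitted fall. Slc3a2, a heavy chain, and Slc1a4, a carrier, rose and are counted in the list of amino acid carriers. Slc1a4, with a log2 change of 0.73, was not among the largest rises. Slc45a3 (1.35), Slc13a3 (0.99) and Slc39a1 (0.82) rose more and had windows that are not shown. The sequences are those of RefSeq on build GRCm38.p6, read 5′ to 3′ on the strand of the gene from 250 bases before to 50 bases after its start, and Slc7a5 and Slc15a3 had no entry. Capitals mark every match, on either strand, to any of the 6 motifs searched.
Slc10a6, chr5:103629354-103629653, strand -: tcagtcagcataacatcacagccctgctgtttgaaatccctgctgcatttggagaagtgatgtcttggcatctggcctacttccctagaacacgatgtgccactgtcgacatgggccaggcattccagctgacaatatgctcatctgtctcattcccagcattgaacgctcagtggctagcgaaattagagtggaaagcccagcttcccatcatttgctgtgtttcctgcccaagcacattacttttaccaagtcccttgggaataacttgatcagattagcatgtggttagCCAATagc
Slc3a2, chr19:8713848-8714147, strand -: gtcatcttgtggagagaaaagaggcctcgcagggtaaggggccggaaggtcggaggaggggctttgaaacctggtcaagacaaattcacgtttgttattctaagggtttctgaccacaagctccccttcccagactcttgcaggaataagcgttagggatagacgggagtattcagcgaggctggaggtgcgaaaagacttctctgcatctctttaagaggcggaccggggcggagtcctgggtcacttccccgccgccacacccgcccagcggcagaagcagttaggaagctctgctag
Slc1a4, chr11:20332664-20332963, strand -: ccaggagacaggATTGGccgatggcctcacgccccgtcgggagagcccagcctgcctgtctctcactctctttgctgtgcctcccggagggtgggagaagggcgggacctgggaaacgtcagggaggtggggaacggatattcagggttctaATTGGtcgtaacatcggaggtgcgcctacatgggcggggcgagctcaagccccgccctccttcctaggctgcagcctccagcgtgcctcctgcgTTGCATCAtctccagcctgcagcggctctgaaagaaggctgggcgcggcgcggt
Slc29a2, chr19:5023756-5024055, strand +: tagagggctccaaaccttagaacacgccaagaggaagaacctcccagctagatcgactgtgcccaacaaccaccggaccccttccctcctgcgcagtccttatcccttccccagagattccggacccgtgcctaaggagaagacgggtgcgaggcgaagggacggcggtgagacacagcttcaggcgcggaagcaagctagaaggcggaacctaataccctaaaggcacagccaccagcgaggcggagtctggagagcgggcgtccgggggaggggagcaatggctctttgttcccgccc
The motifs were the amino acid response element core TGATGNAA, an NF-kB site (GGG, any 2 bases, TTTCC), a STAT site TTCNNNGAA, an interferon-stimulated response element (GAAA, any 2 bases, GAAA), the E-box CACGTG and the CCAAT box CCAAT. Of the 4 windows, that of Slc1a4 held the amino acid response core, at position -4 on the opposite strand, while Slc3a2 and Slc29a2 held none of the 6 motifs. Windows on 1 chromosome were left out of the counts of members. The windows that remained covered 14 of the rising members and 8 of the falling members, several of which had more than 1 start. A gene was counted when any of its windows held a match. The shares given for comparison were counted in the same way over all 27025 genes, and in brackets over all 32851 single windows, with no chromosome left out. The amino acid response core occurred in 1 rising gene, Slc1a4, and 1 falling gene, Slc50a1, against 4.51% of all genes (3.97% of windows). The NF-kB and interferon motifs occurred in none of the windows of either set, against 1.89% and 3.99% of all genes (1.63% and 3.44% of windows). The STAT motif occurred in 2 rising and 2 falling genes, against 9.55% of all genes (8.3% of windows). The E-box occurred in 3 rising and 2 falling genes, against 8.09% of all genes (7.15% of windows), and the CCAAT box in 8 rising and 3 falling genes, against 41.1% of all genes (37.4% of windows). No test was made of these counts.

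Most of the 249 members were too dim to be measured. On each array a probe counted as above background when its signal exceeded the 95th percentile of the negative-control spots, and a gene was tested when a probe of it did so on at least 4 of the 8 arrays. By this filter 113 members were tested. A further 116 were above background on no array and 20 on 1 to 3 arrays. Of the members fixed for naming, Slc7a11, the cystine-glutamate exchanger, Slc5a3, the inositol carrier, and the sodium-calcium exchanger Slc8a2 were above background on no array, and Slc38a1 and Slc22a3 on 1 saline array each. The share of gene probes above background ran from 37.3% to 42.6% on the LPS arrays and from 39.7% to 46.9% on the saline arrays, and that of the members' probes from 31.5% to 38.9% on LPS arrays and from 32.1% to 39.1% on saline arrays. Cardiomyocyte markers were present, all 8 on the array being tested and none of them called, with a summed intensity of 138409 to 192702 on LPS arrays and 181898 to 269303 on saline arrays. All 8 nevertheless had negative log2 changes, from -0.85 to -0.18, with a list median of -0.5. The pieces of heart differed in atrial tissue within both groups: Myl7, an atrial myosin light chain, had log2 values of 15.0, 15.30, 14.92 and 5.95 on LPS arrays and 15.88, 6.41, 10.84 and 13.76 on saline arrays. It was near background on LPS 4 and saline 2. The neutrophil markers S100a8, S100a9, Retnlg and Csf3r all rose, their summed intensity being 1691 to 2299 on LPS arrays and 289 to 743 on saline arrays, while Elane and Cxcr2 were above background on no array. Macrophage markers (6 tested of 8, with Lyz2 and C1qa lower) summed to 7331 to 8486 on LPS arrays and 8820 to 10496 on saline arrays, and those of smooth muscle and pericytes (5 tested of 6, with Rgs5 and Cspg4 lower) to 1238 to 1653 and 1757 to 2342 in the same order. Fibroblast markers (5 of 5 tested, with Dcn higher and Lum and Col1a1 lower) summed to 21196 to 25788 on LPS arrays and 15766 to 20276 on saline arrays. That sum was mostly Dcn, by far the brightest of them, with mean log2 values of 14.32 with LPS and 13.84 with saline. All the other fibroblast markers had negative changes, those of Pdgfra and Col1a2 not being called, and the list median was -0.45. None of 3 tested erythroid and 2 tested adipocyte markers was called. Endothelial markers (7 of 7 tested, with Tek and Flt1 lower) summed to 5586 to 8832 on LPS arrays and 8242 to 11542 on saline arrays. The part of these shifts in the results on carriers was not tested. In RNA from whole tissue, fewer cells of a type and less RNA per cell cannot be told apart.

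Solute carriers changed in both directions with LPS, and the middle of the set lay near 0. Of the 113 tested members 18 rose and 13 fell at an adjusted p of 0.05 in the moderated linear model of limma, fitted over all genes (Benjamini-Hochberg adjustment). That is 15.9% higher and 11.5% lower, or 27.4% in all. Among all 8875 tested genes 9.74% were called higher and 9.77% lower, or 19.5% in all. The share of members called lower was therefore near that of all genes, and the share called higher was above it, a difference for which no test was made. The count of rises varied with the setting. Whether the share called higher stayed above that of all genes under other settings was not counted. Of the 18 rises 6 were above background on only 1 or 2 saline arrays. Genes above background on all 8 arrays gave 10 higher and 13 lower of 89, or 25.8% called in all against 17% of all genes. Median scaling over all gene probes gave 6 higher and 18 lower of 113, or 21.2% in all against 16.7%. The median log2 change was 0.02 over the members and -0.05 over all tested genes. Rises of at least 2-fold were found in 6 members (Slc10a6, Slc15a3, Slc7a5, Slc45a3, Slc43a3 and Slc3a2) and falls of at least 2-fold in 2 (Slc29a2 and Slc6a6). In 38 members the LPS and saline values did not overlap, 22 of them higher and 16 lower, which is 33.6% of the members against 23.5% of all tested genes. The 82 members that were not called lay between -0.59 and 0.74, and 76 of them within 0.5 of no change.

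**Figure D1:**
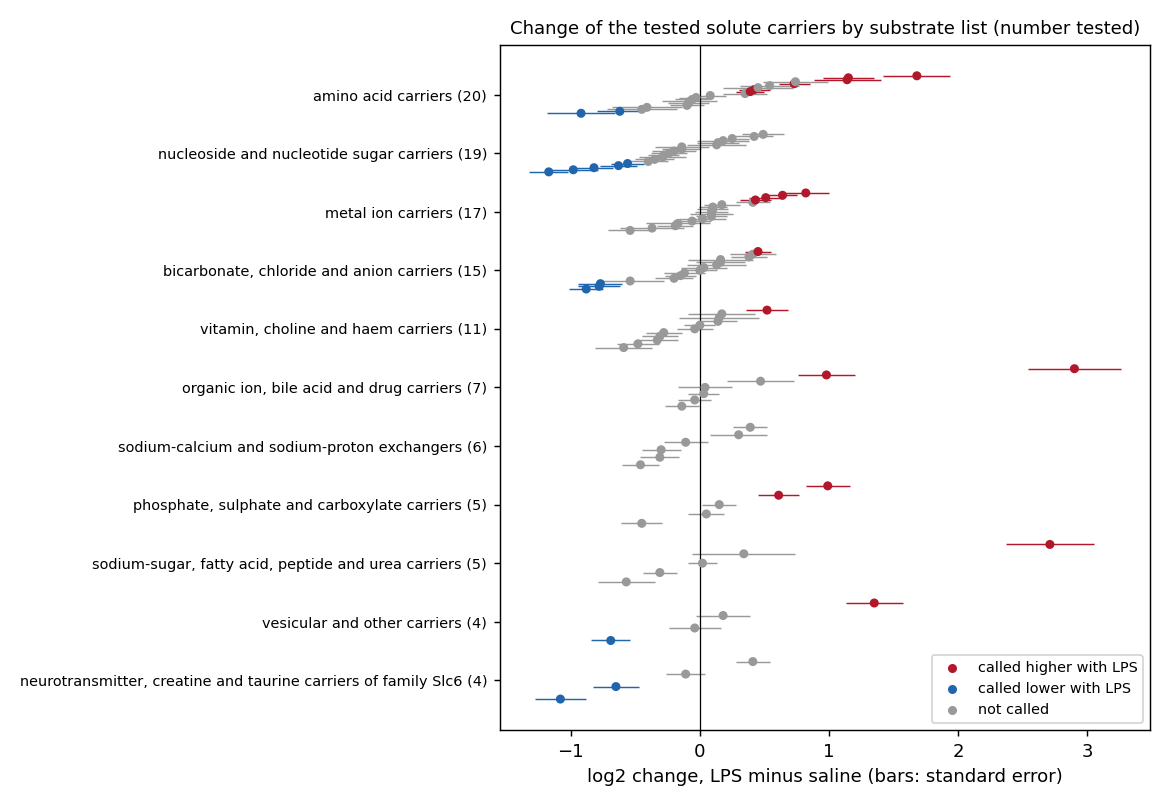
Log2 change, LPS minus saline (x axis), of each of the 113 tested solute carriers, with bars for the standard error, in rows by substrate list with the number tested. Slc10a6 at 2.90 and Slc15a3 at 2.71 stand apart to the right, and the called falls, down to -1.17, lie in the rows of nucleoside, anion, amino acid, Slc6 and vesicular and other carriers.

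The count of rises depended on how arrays were scaled and grouped. Scaling each array by the median of all its gene probes, most of them near background, moved the median of all genes to -0.35 and left 6 members called higher and 18 lower. All 18 rises then still had a positive change. Within the first scan day (LPS 2 to 4 against saline 3 and 4) 3 members were called higher and 4 lower. All 31 called members had the same sign there as over all arrays. Those arrays were among the ones that gave the calls, so this sameness of sign was largely fixed in advance and is no separate support. Among the members that kept their call in the first scan day were Slc10a6, Slc15a3, Slc45a3, Slc29a2, Slc6a6 and Slc12a2. With scan day as a block 13 rose and 14 fell. The first slide series held LPS arrays only, so a fit with the slide series as a block sets LPS 1 against the saline arrays, and it called 10 higher and 5 lower. Of the 31 called members 13 kept their call in it, among them Slc10a6, Slc15a3, Slc7a5, Slc43a3, Slc13a3, Slc1a4, Slc20a1, Slc23a2, Slc29a2, Slc28a2, Slc50a1 and Slc38a9. Slc10a6 and Slc29a2 were called in the same direction under each of the 23 alternatives in which they were tested, both being too dim for the filter on all 8 arrays. Without any 1 array 22 of the 31 members kept their call. Of the other 9, Slc39a10, Slc20a1, Slc6a8, Slc23a2, Slc38a3 and Slc38a9 are taken up with their lists below. The remaining 3, Slc1a3, Slc30a7 and Slc7a6, had the smallest called rises (0.42, 0.43 and 0.39), and leaving out 7 of the 8 arrays, 1 at a time, ended each of those calls (adjusted p from 0.0506 to 0.105). LPS 4 was the exception for Slc1a3 and Slc7a6 and LPS 3 for Slc30a7. Median scaling over all gene probes put Slc1a3 at 0.35 (adjusted p = 0.124), Slc30a7 at 0.19 (0.454) and Slc7a6 at 0.15 (0.547), and the first scan day alone and the scan day, slide series and replicate blocks ended all 3 calls as well.

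The 18 rising members did not rise equally in all treated hearts. Averaged over them, the log2 value exceeded the saline mean by 1.18, 1.21, 0.72 and 0.99 on LPS arrays 1 to 4, while the saline arrays lay between -0.04 and 0.09. LPS 3 was the lowest LPS array for 11 of the 18 rising members and the highest for none. The 13 falling members lay below the saline mean by an average of -0.79, -0.77, -0.67 and -1.01 on LPS arrays 1 to 4. LPS 4 was the lowest for 6 of the 13 and LPS 3 the highest for 6. LPS 3 thus showed the smallest average shift in both directions.

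**Figure D2:**
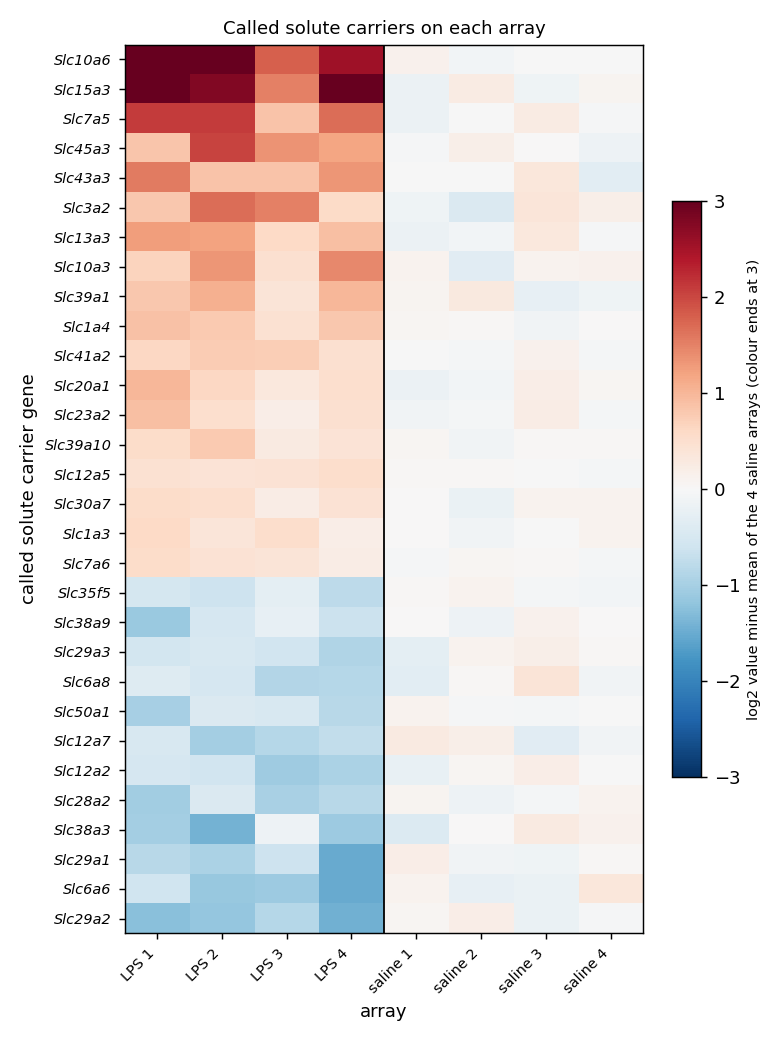
Colour gives the normalized log2 value of 30 of the 31 called solute carriers (rows, from the largest rise to the largest fall) on each array (columns, LPS left and saline right), minus the mean of the 4 saline arrays. The 18 upper rows are higher and the 12 lower rows lower with LPS, and LPS 3 is the palest LPS array in 11 of the 18 upper rows.

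Amino acid carriers, the largest of the substrate lists, rose more often than they fell under quantile normalization. Of 20 tested 6 rose (Slc7a5, Slc43a3, Slc3a2, Slc1a4, Slc1a3 and Slc7a6), 2 fell (Slc38a3 and Slc38a9) and 12 were not called. This balance depended on the scaling. Under median scaling over all gene probes Slc7a5 alone of the 6 kept its call, whereas Slc38a3 and Slc38a9 both kept theirs. The list median was 0.22, against -0.05 for all tested genes, of which 9.74% rose and 9.77% fell. Both chains of the large neutral amino acid exchanger rose. Slc7a5, its light chain, had normalized log2 values of 9.19, 9.20, 7.94 and 8.77 on LPS arrays 1 to 4, against 6.91, 7.07, 7.34 and 7.05 on saline arrays 1 to 4. Every LPS array was above every saline array, with LPS 3 the nearest to them. The change was 1.68 (SE 0.26, limma adjusted p = 0.00185), a 3.21-fold rise. Slc3a2, the CD98 heavy chain, had values of 9.97, 10.82, 10.66 and 9.72 on LPS arrays, against 9.02, 8.73, 9.53 and 9.34 on saline arrays. Its groups did not overlap either, but here LPS 2 and LPS 3 were the high ones, so the order of the LPS hearts was not that of Slc7a5. The change was 1.14 (SE 0.26, limma adjusted p = 0.015), and a second Slc3a2 probe gave 0.83 (SE 0.21).

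Other light chains that pair with Slc3a2 were measured too. Slc7a6, which exchanges neutral against basic amino acids, had the smallest called rise of the 18. Slc7a8 and Slc7a7, a pair chosen after their values were seen, had log2 changes of 0.35 (SE 0.17, limma adjusted p = 0.194) and 0.45 (SE 0.27, limma adjusted p = 0.287). Their LPS and saline values overlapped, and Slc7a11 was not measurable. Median scaling over all gene probes ended the call of Slc3a2 (0.69, limma adjusted p = 0.146), as did the first scan day alone (0.96, adjusted p = 0.147) and the slide series block (0.81, adjusted p = 0.29), and that of Slc7a5 ended in the first scan day alone (1.44, adjusted p = 0.0773).

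Calls among the other amino acid carriers went in both directions. Slc1a4, which exchanges alanine, serine and cysteine, had log2 values of 7.55, 7.46, 7.14 and 7.49 on LPS arrays and 6.75, 6.72, 6.57 and 6.68 on saline arrays. The groups were well apart and the change was 0.73 (SE 0.12, limma adjusted p = 0.00336). Its relative Slc1a5, a glutamine exchanger, had 8.12, 9.36, 8.53 and 8.76 with LPS and 8.05, 8.04, 8.24 and 8.30 with saline. There the groups overlapped through LPS 1, and the change of 0.54 (95% interval 0.03 to 1.04, limma adjusted p = 0.133) was not called, though without LPS 1 it was (0.73, adjusted p = 0.0385). Slc38a3, a glutamine carrier, had 10.02, 9.62, 10.89 and 9.95 with LPS and 10.63, 11.05, 11.32 and 11.18 with saline. It fell by 0.92 (SE 0.26, limma adjusted p = 0.0326), with LPS 3 inside the saline range. Slc38a9, the lysosomal carrier through which mTORC1 senses arginine, fell by 0.62 (SE 0.18, limma adjusted p = 0.0348), and a second probe gave -0.19. Slc38a2, a neutral amino acid carrier that cells induce when amino acids run short, had a change of 0.74 (SE 0.25, limma adjusted p = 0.0693) with groups that did not overlap, and a dimmer probe gave -0.02. Leaving out any 1 array other than LPS 3 and saline 1 ended the call of Slc38a3 (adjusted p 0.0734 to 0.0902), and leaving out any 1 array other than LPS 3 that of Slc38a9 (0.0542 to 0.0786). The call of Slc38a3 was also lost without the filter on dim probes (0.0855), in the first scan day alone (0.135) and under the slide series block (0.192), and that of Slc38a9 without the filter (0.0679), in the first scan day alone (0.113) and with the redip mark as a block (0.0506). Slc38a2 was called without LPS 3 (0.86, adjusted p = 0.0452).

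Slc43a3, placed in this list by its family, is known as a carrier of purine nucleobases. It had 11.48, 10.77, 10.79 and 11.26 on LPS arrays and 9.91, 9.91, 10.27 and 9.61 on saline arrays. It was bright and rose by 1.15 (SE 0.20, limma adjusted p = 0.00354), without overlap. Median scaling over all gene probes ended the calls of Slc43a3 (0.73, adjusted p = 0.11) and Slc1a4 (0.53, adjusted p = 0.053), and so did the first scan day alone (1.00, 0.0797 and 0.74, 0.0543).

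All 4 tested nucleoside carriers of families Slc28 and Slc29 fell. Those at the cell surface take up adenosine and other nucleosides, and in the heart they are known for ending adenosine signalling. Slc29a2, an equilibrative nucleoside carrier, had log2 values of 6.50, 6.59, 6.89 and 6.29 on LPS arrays and 7.79, 7.93, 7.54 and 7.71 on saline arrays. It was above background on 2 of the LPS arrays and on all saline arrays, and no values overlapped. Its change of -1.17 (SE 0.15, limma adjusted p = 0.000669) was the largest fall of the set. Slc29a1, the main equilibrative carrier of many tissues, had 8.99, 8.86, 9.19 and 8.29 with LPS and 10, 9.71, 9.69 and 9.85 with saline. The 2 groups were again apart, and the change was -0.98 (SE 0.19, limma adjusted p = 0.00563). Slc28a2, a sodium-coupled purine nucleoside carrier, had 6.59, 7.19, 6.65 and 6.79 with LPS and 7.72, 7.47, 7.58 and 7.74 with saline, a change of -0.82 (SE 0.15, limma adjusted p = 0.00508). Slc29a3, which works in lysosomes, had 7.35, 7.42, 7.34 and 7.0 with LPS and 7.62, 8.00, 8.07 and 7.93 with saline, a change of -0.63 (SE 0.14, limma adjusted p = 0.0138). None of the 4 had overlapping groups. Over all tested genes 9.77% were called lower, and 12.3% had LPS values that all lay below the saline values.

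The nucleotide sugar family Slc35, counted in the same list, moved little. Of its 15 tested members 1 fell, the orphan Slc35f5 by 0.56 (SE 0.13, limma adjusted p = 0.0151), and none rose, with changes from -0.56 to 0.49 and a median of -0.14. The whole list of nucleoside and nucleotide sugar carriers had 5 falls and no rise in 19 tested, with a median of -0.24, beside 9.77% of all tested genes called lower and 9.74% higher. In the first scan day alone the calls of Slc29a1 (-0.99, adjusted p = 0.0894), Slc28a2 (-0.78, adjusted p = 0.0764), Slc29a3 (-0.75, adjusted p = 0.0621) and Slc35f5 (-0.49, adjusted p = 0.153) ended. With the slide series as a block those of Slc29a1 (-0.83, 0.137), Slc29a3 (-0.55, 0.196) and Slc35f5 (-0.52, 0.179) ended.

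**Figure D3:**
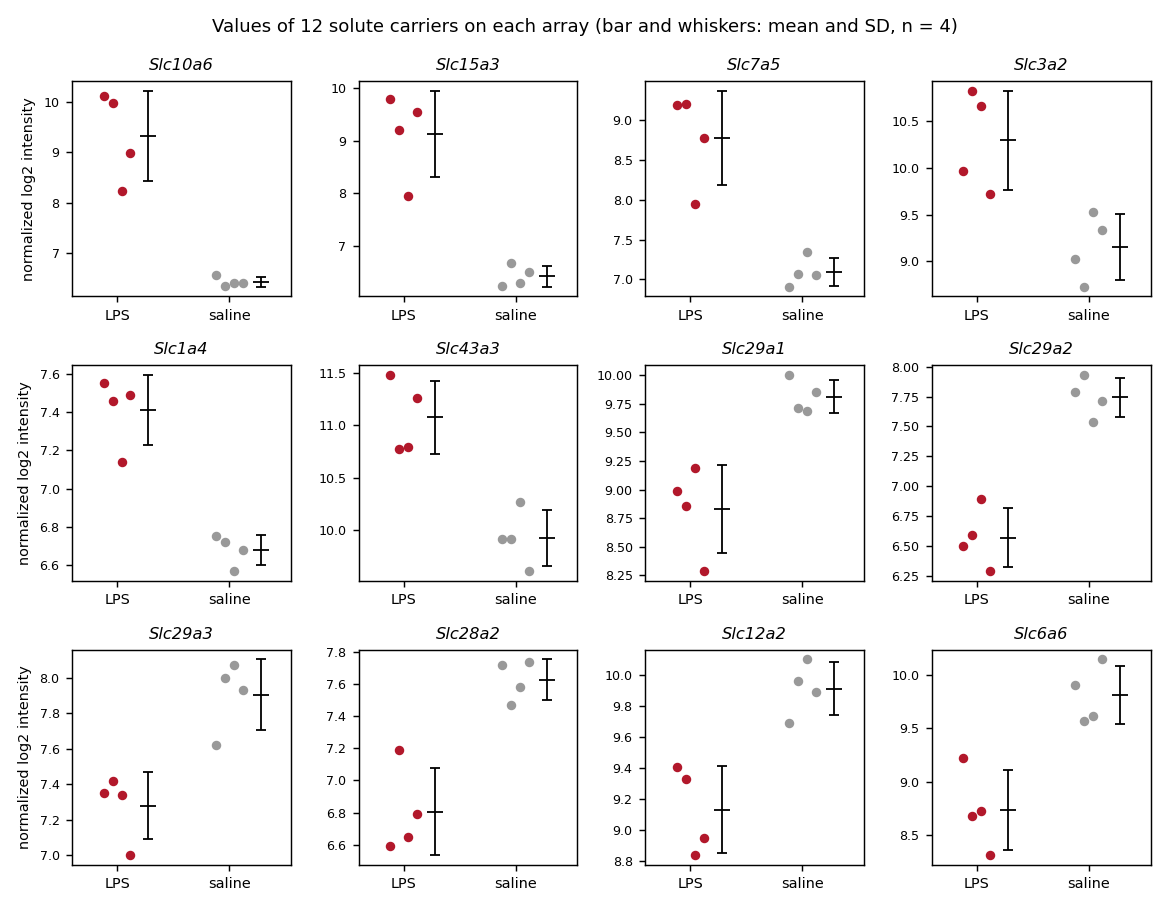
Normalized log2 intensity (y axes, scaled separately) of 12 solute carriers on each LPS array (left) and saline array (right), with the mean and SD (n = 4). LPS values lie above all saline values for the 6 rising genes and below all of them for the 6 falling genes, and LPS 3, next to the rightmost LPS point, is nearest to saline for Slc10a6, Slc15a3, Slc7a5 and Slc1a4.

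The cation-chloride carriers of family Slc12 split. They move chloride with sodium and potassium into the cell, as Slc12a2 does, or with potassium out of it, as Slc12a4, Slc12a5 and Slc12a7 do, and so set cell volume and chloride. Slc12a2 had log2 values of 9.41, 9.33, 8.84 and 8.95 with LPS and 9.69, 9.96, 10.10 and 9.89 with saline, a change of -0.78 (SE 0.16, limma adjusted p = 0.0086). Slc12a7 fell by 0.77 (SE 0.17, limma adjusted p = 0.0107), with values of 8.30, 7.74, 7.91 and 8.04 on LPS arrays and 9.03, 8.94, 8.44 and 8.67 on saline arrays. In both genes every LPS value was below every saline value, so that an importer and an exporter of chloride fell side by side. Slc12a4 did not share the fall. It had a change of 0.13 (95% interval -0.39 to 0.65), and its saline 2 value of 8.61 stood above the others. Slc12a5, known as the chloride exporter of neurons, rose by 0.45 (SE 0.10, limma adjusted p = 0.0127) but was above background on 1 saline array, at 6.84 to 6.96 on LPS arrays and 6.37 to 6.47 on saline arrays. The slide series block ended the calls of Slc12a2 (-0.50, adjusted p = 0.248), Slc12a7 (-0.47, 0.293) and Slc12a5 (0.45, 0.133). The calls of Slc12a7 (-0.66, 0.0669) and Slc12a5 (0.48, 0.0845) also ended within the first scan day, and that of Slc12a5 under median scaling over all gene probes (0.34, 0.0852).

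Bicarbonate and anion exchangers were not called. None of the 5 tested carriers of family Slc4 or the 2 of family Slc26 passed the threshold, beside 19.5% of all tested genes called. The list of 15 tested bicarbonate, chloride and anion carriers had a median of 0.00. Slc4a3, the chloride-bicarbonate exchanger abundant in heart muscle, had 9.37, 10, 9.46 and 10.01 on LPS arrays and 10.53, 10.62, 10.39 and 9.45 on saline arrays. Saline 4 lay among the LPS values, and the change of -0.54 (95% interval -1.12 to 0.05, limma adjusted p = 0.191) was called only when saline 4 was left out (-0.80, adjusted p = 0.0256). Other probes of Slc4a3 gave -0.15 and -0.19. Slc4a4, a sodium-bicarbonate carrier, and Slc26a6, an anion exchanger of the heart, had changes of -0.15 (95% interval -0.43 to 0.12) and -0.12 (95% interval -0.48 to 0.24).

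The sodium-proton and sodium-calcium exchangers had no call among 6 tested, with a median of -0.21, beside 19.5% of all tested genes called. Slc8b1, the mitochondrial sodium-calcium exchanger, had a change of -0.46 (SE 0.14, limma adjusted p = 0.0518), with groups that did not overlap. It was called under some settings, with mean spot brightness at -0.53 (adjusted p = 0.0101) and without LPS 1 at -0.52 (adjusted p = 0.0467).

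The taurine and creatine carriers of family Slc6, which use the sodium and chloride gradients to fill heart muscle with these solutes, both fell. Slc6a6, the taurine carrier, had log2 values of 9.22, 8.68, 8.72 and 8.31 on LPS arrays and 9.91, 9.57, 9.62 and 10.15 on saline arrays. No LPS value reached a saline value, and the change was -1.08 (SE 0.20, limma adjusted p = 0.00547). Slc6a8, the creatine carrier, had 12.22, 12.10, 11.74 and 11.76 with LPS and 12.29, 12.65, 12.99 and 12.50 with saline. Here the gap was narrow, between LPS 1 and saline 1, and the change was -0.65 (SE 0.18, limma adjusted p = 0.0281). The other 2 tested members of the family were not called. Among all tested genes 9.77% were called lower. The 13 not tested, which are carriers of neurotransmitters and amino acids of brain, kidney and gut among others, were above background on no array. The call of Slc6a8 did not survive the omission of any 1 array other than LPS 1, saline 1 and saline 4 (adjusted p 0.0508 to 0.0803), cyclic loess (-0.58, 0.0509) or testing without the filter on dim probes (0.0565), and it also ended in the first scan day alone (-0.87, 0.0669) and under the slide series block (-0.39, 0.432), which also ended that of Slc6a6 (-0.59, adjusted p = 0.221).

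The largest fitted rises were those of Slc10a6 and of the brightest Slc15a3 probe, whose saline values lay near background. Slc10a6, a sodium-coupled carrier of sulphated steroid hormones, had log2 values of 10.13, 9.98, 8.23 and 8.98 on LPS arrays and 6.56, 6.34, 6.41 and 6.41 on saline arrays. It was above background on 4 LPS arrays and 1 saline array. The change of 2.90 (SE 0.36, limma adjusted p = 0.000559) is set against saline values near the floor of the measurement, so its size is uncertain, and over the alternatives it ran from 2.63 to 3.85. Its relative Slc10a3, an orphan carrier, had 8.84, 9.48, 8.65 and 9.60 with LPS and 8.28, 7.83, 8.26 and 8.29 with saline, a change of 0.98 (SE 0.22, limma adjusted p = 0.0132). Both groups of that gene were above background and did not overlap. These were the 2 tested members of the bile acid carrier family, beside 9.74% of all tested genes called higher. The other 5 tested members of the list of organic ion, bile acid and drug carriers were not called, with Slc22a4, a carrier of ergothioneine and carnitine, at -0.14 (95% interval -0.43 to 0.15). Median scaling over all gene probes (0.56, adjusted p = 0.152), the first scan day alone (0.97, 0.113) and the slide series block (0.68, 0.284) ended the call of Slc10a3.

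Slc15a3 carries histidine and small peptides out of the lysosomes of immune cells. Its brightest probe had 9.80, 9.20, 7.94 and 9.55 on LPS arrays and 6.23, 6.66, 6.28 and 6.50 on saline arrays, and was above background on 1 saline array. The change was 2.71 (SE 0.34, limma adjusted p = 0.000642). A second probe, above background on no saline array, gave 1.71 (SE 0.22). Another, above background on all 8 arrays, gave -0.75 (SE 0.14), and it was called lower when genes had to be above background on every array (adjusted p = 0.00729). The direction for Slc15a3 therefore rests on which probe is read, and the mean of the 3 probes gave 1.22 (adjusted p = 0.00273). Slc11a1, a metal carrier of the phagosomes of macrophages and neutrophils, had 10.30, 9.35, 8.99 and 9.49 with LPS and 9.40, 9.77, 9.92 and 9.71 with saline. The groups overlapped and the change was -0.17 (95% interval -0.72 to 0.39), beside the rise of the neutrophil markers given above.

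**Figure D4:**
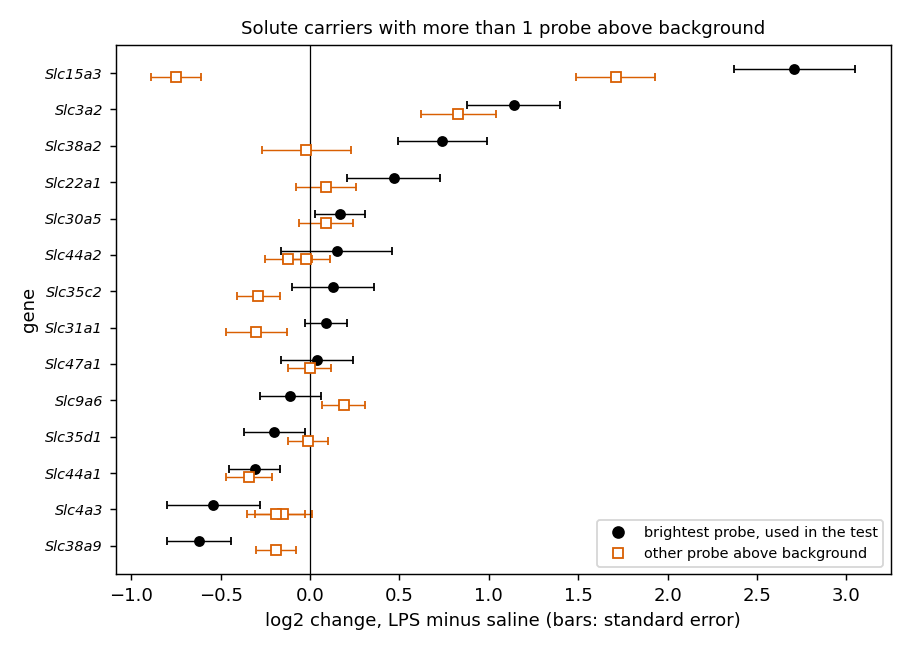
Log2 change, LPS minus saline (x axis), of each probe above background for 14 of the 15 tested solute carriers with more than 1 such probe, with standard error bars. Slc3a2 has both probes to the right of 0, whereas Slc15a3 has a probe on the other side.

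More than 1 probe passed the filter for 15 of the 113 tested members, and the probes often differed. Of 18 additional probes 9 had the sign of the probe used in the test. For the 4 called members, among them Slc15a3, Slc3a2 and Slc38a9, it was 3 of 5. The other 27 called members rest on a single probe above background.

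Carriers of zinc and other metals rose where they were called. Of 17 tested 4 rose (Slc39a1, Slc41a2, Slc39a10 and Slc30a7) and none fell, with a median of 0.09. Among all tested genes 9.74% were called higher and 9.77% lower, and the difference was not tested. Slc39a1, a zinc importer of the cell surface, had 9.66, 9.90, 9.23 and 9.83 on LPS arrays and 8.92, 9.14, 8.60 and 8.70 on saline arrays, a change of 0.82 (SE 0.18, limma adjusted p = 0.0108). Slc39a10, another zinc importer, rose by 0.51 (SE 0.13, limma adjusted p = 0.0238), and Slc41a2, a magnesium carrier that was above background on 2 saline arrays, by 0.64 (SE 0.11, limma adjusted p = 0.00392). All 3 had groups that did not overlap. Slc30a7, which loads zinc into the Golgi, also rose. Slc30a1, the zinc exporter of the cell surface, had 8.25, 8.55, 8.67 and 8.35 with LPS and 8.17, 8.59, 9.14 and 9.41 with saline. That change of -0.37 (95% interval -0.92 to 0.17) lay within a wide saline spread. Slc11a2, an iron carrier, was at 0.09 (95% interval -0.20 to 0.39). Omitting LPS 1, LPS 2, saline 2 or saline 4 ended the call of Slc39a10 (adjusted p 0.0529 to 0.0688), as did 5 other settings (0.0555 to 0.252), the highest p being that of median scaling over all gene probes. That scaling also ended the call of Slc39a1 (0.38, adjusted p = 0.335), as did the first scan day alone (1.00, adjusted p = 0.0621) and the slide series block (0.81, 0.133). Slc41a2 was not called in the first scan day alone (0.63, 0.07) or under the slide series block (0.61, 0.0769).

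Phosphate, carboxylate and sugar carriers gave single calls. Slc13a3, a sodium-coupled carrier of succinate and other dicarboxylates, had 8.10, 8.05, 7.46 and 7.75 with LPS and 6.67, 6.77, 7.16 and 6.81 with saline, a change of 0.99 (SE 0.17, limma adjusted p = 0.00369). Slc20a1, a sodium-phosphate carrier, rose by 0.61 (SE 0.16, limma adjusted p = 0.0265). They were the called ones of 5 tested phosphate, sulphate and carboxylate carriers, beside 9.74% of all tested genes called higher. Slc45a3, a member of a sugar carrier family, had 7.96, 9.14, 8.47 and 8.31 with LPS and 7.08, 7.29, 7.14 and 6.98 with saline, a change of 1.35 (SE 0.22, limma adjusted p = 0.00264). Slc50a1, a sugar carrier, had 9.39, 9.95, 9.92 and 9.56 with LPS and 10.50, 10.35, 10.34 and 10.37 with saline, a change of -0.69 (SE 0.15, limma adjusted p = 0.00994). Slc13a3, Slc45a3 and Slc50a1 had no overlap between groups. Omitting any 1 array other than LPS 3, LPS 4 and saline 3 ended the call of Slc20a1 (adjusted p 0.0514 to 0.0706), and 5 other settings did so too (0.062 to 0.492), the change being 0.23 under median scaling over all gene probes. That of Slc45a3 ended under the slide series block (0.84, adjusted p = 0.123), and those of Slc13a3 (0.77, 0.0945) and Slc50a1 (-0.55, 0.111) within the first scan day.

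Vitamin and choline carriers were little changed. Of 11 tested 1 rose and none fell, beside 9.74% of all tested genes called higher and 9.77% lower. The rise was that of Slc23a2, a sodium-coupled carrier of vitamin C, by 0.52 (SE 0.16, limma adjusted p = 0.0447). Its values were 7.40, 6.99, 6.70 and 6.98 on LPS arrays and 6.40, 6.43, 6.72 and 6.43 on saline arrays, with saline 3 inside the LPS range. Slc19a2, a thiamine carrier, was at 0.00 (95% interval -0.26 to 0.26), and Slc44a1, a choline carrier, at -0.31 (95% interval -0.63 to 0.01). Omitting any 1 array other than LPS 3 and saline 3 ended the call of Slc23a2 (adjusted p 0.0893 to 0.105), as did 6 other settings (0.0595 to 0.301).

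Genes that work with these carriers were described from 4 lists, beside 9.74% of all tested genes called higher and 9.77% lower. Of 7 tested carriers of the same superfamily with other symbols, none rose and 1 fell, the organic anion carrier Slco2b1 (-0.85, SE 0.16, limma adjusted p = 0.00661). Of 10 tested genes of the sodium pump, which keeps the gradient that many carriers use, Fxyd6 (0.53, SE 0.15) and Fxyd5 (0.52, SE 0.16) rose and Atp1b2 (-1.27, SE 0.14) and Fxyd1 (-0.73, SE 0.21) fell, with limma adjusted p from 0.000317 to 0.0482. Of 8 tested genes of the WNK kinase pathway, which regulates family Slc12, Sgk1 rose (0.74, SE 0.21, limma adjusted p = 0.0316) and none fell. Wnk1 was at -0.39 (SE 0.15, limma adjusted p = 0.1).

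Of 13 tested genes of the amino acid response and of amino acid sensing by mTORC1, 4 rose, 1 fell and 8 were not called. The shares over all tested genes were 9.74% higher and 9.77% lower. Atf4, the transcription factor of the amino acid response, rose by 0.96 (SE 0.18, limma adjusted p = 0.00588), with 11.38, 11.82, 11.46 and 11.80 on LPS arrays and 10.67, 10.17, 10.89 and 10.88 on saline arrays. In the same list Chac1, a glutathione-degrading enzyme, and Asns, asparagine synthetase, rose by 2.36 (SE 0.22) and 1.07 (SE 0.22), and Psat1, an enzyme of serine synthesis, by 0.49 (SE 0.14). Ddit3, another gene of the amino acid response, fell by 1.08 (SE 0.15, limma adjusted p = 0.00134). Sesn2 was not called, at 0.08 (SE 0.11, limma adjusted p = 0.668). The list median was 0.27. These lists were chosen with earlier results of the same arrays known.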

How the data were processed

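RNA of 8 hearts was measured on 8 spotted arrays. Per the file headers, the deposited values are spot and local background intensity at 635 nm, exported by GenePix Pro 4.1.1.4 without normalization. The deposited log2 value table was not used, since its row names match no probe and carry no gene. Of 35078 gene probes, 23071 matched 1 symbol through their RefSeq accession (table of GRCm38.p6) and 12007 none. Median intensities were corrected by normexp (offset 50), taken to log2 and quantile normalized with limma 3.58.1 in R 4.3.3, and spots marked bad were left out. Probes above the 95th percentile of 94 negative-control spots on at least 4 arrays were kept. The brightest stood for its gene, which left 12100 features (8875 named genes and 3225 unnamed probes). A limma fit over all of them, with 10.13 degrees of freedom and an adjusted p of 0.05 as the threshold, set LPS against saline.

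A typical gene probe stood only 12 to 18 intensity units over background on LPS arrays and 15 to 32 on saline arrays (medians), so the number of arrays and dim signals limit precision. The limma fit alone was run on simulated data of 8875 genes with 200 changed, made of independent normal noise around the normalized means. It called 32.2%, 75.2% and 97.6% of genes changed 1.5-, 2- and 4-fold, and 3.94% of its calls were unchanged genes. Background correction, normalization, filter, probe choice and slide series were not simulated, and 1731 genes were called in the real data. These rates therefore need not hold for these arrays. Alternatives covered background correction, offset, spot summary, normalization, filter, probe choice, prior, array weights, scan day, slide series, a redip mark in the file names, replicate number and each array left out. Genes named are the 12 largest called rises and the 12 largest called falls, the largest called rise and fall of each substrate list (or, with no call, its smallest p) and a fixed set of 30 carriers; others were chosen after their values were seen, and a few genes under this rule or in the lists are not reported here. Members, lists and rules were chosen with earlier results of these data known. Same-numbered arrays come from different mice, and their deviations from the group means correlated at -0.14 to 0.09, so the numbers were not taken as pairs.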

Additional observations from a re-analysis of the deposited data

Results flagged for a closer look

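In 5 of 80 groups of 4 arrays, over the 40 named members, the highest or lowest array stood so far from the others that its gap exceeded Dixon's limit for 4 values, and chance alone gives about 5% of groups. Slc11a2 had 8.44 on LPS 1 against 8.13 to 8.16 on the other LPS arrays. Slc12a4 had 8.61 on saline 2 against 7.63 to 7.73 on the other saline arrays. Slc10a3 and Slc39a10 had their lowest saline values on saline 2, at 7.83 against 8.26 to 8.29 and at 6.81 against 6.95 to 6.97 on the other saline arrays. Slc23a2 had 6.72 on saline 3 against 6.40 to 6.43 on the other saline arrays.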

How the results depend on the processing

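Of 24 alternatives, the first scan day alone gave the lowest counts, and median scaling over all gene probes moved the median most, to -0.27 beside -0.35 for all genes, with 6 members called higher. The count called higher was 10 when genes had to be above background on all 8 arrays (89 members tested), 3 in the first scan day alone and 10 under the slide series block, and the count called lower was 4 and 5 in the last 2 settings. The median was 0.07 when arrays were scaled by the median of the tested probes, and -0.04 with scan day as a block and in the first scan day alone. Leaving out 1 array gave 12 to 19 members higher, 10 to 15 lower and a median of -0.04 to 0.02. The counts stayed within 1.5 times of 18 and 13 under all other settings. The replicate block, whose numbers do not pair the mice, called 12 higher and 12 lower, and 2 of 8 arrays correlated best with their own number. For named members, 825 of 954 values kept direction and side of the threshold, 93 lost the call, 16 gained it and 20 changed sign. Besides Slc15a3 (-0.75 when above background on all 8 arrays), the sign changed only in members without a call. These were Slc19a2 (0.00 without background correction, 0.04 with mean spot brightness, 0.05 under cyclic loess and without LPS 3, 0.06 without saline 3, and 0.12 both under the slide series block and when arrays were scaled by the median of the tested probes) and Slc11a1 (0.00 with mean brightness, 0.60 under the slide series block, 0.01 without LPS 3). Slc26a6 was at 0.00 with mean brightness and 0.02 without LPS 3. With 1 array left out, Slc11a1 ranged from -0.42 to 0.01, Slc26a6 from -0.20 to 0.02 and Slc19a2 from -0.04 to 0.06. Median scaling over all gene probes gave -0.22 for Slc12a4 and -0.28 for Slc11a2, and that over the tested probes 0.11 for Slc4a4 and 0.05 for Slc22a4. The slide series block gave -0.03 for Slc1a5, 0.01 for Slc4a4 and 0.09 for Slc22a4. The cause of these shifts was not tested. Signals near background limit what can be said of the 136 members that were not tested.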

Other observations

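Among the 20 members above background on 1 to 3 arrays, and so not tested, 10 were seen on LPS arrays only, 9 on saline arrays only and 1 in both groups. The examples were chosen after their values were seen. Slc1a1, a glutamate carrier, and Slc22a6, an organic anion carrier, were above background on 3 LPS arrays and on no saline array, and Slc39a8, a zinc importer, on 2 LPS arrays and no saline array. Slc26a10, an orphan of the anion exchanger family, was above background on 3 saline arrays and on no LPS array, and Slc33a1 and Slc35a2 on 2 saline arrays and no LPS array. No fold change or test is given for them.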
